A study of Rattus norvegicus with 30 samples.

Results

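The osmolyte and tonicity response genes of the rat kidney were chosen by symbol as 7 genes: *Nfat5*, *Akr1b1*, *Slc6a12*, *Slc6a6*, *Slc5a3*, *Hspa4l*, and *Slc14a2*. Of these, 6 were found among the 32545 gene rows of the mRNAseq table. *Slc14a2* occupied 2 rows, so that 7 rows were described, and *Slc5a3*, the myo-inositol transporter gene, was not analysed here. Male Sprague-Dawley (SD) rats ate a purified low salt diet with 0.4% NaCl (LS) or were switched to 4.0% NaCl for 14 d (HS14) or 21 d (HS21). Poly(A) mRNA of the right kidney cortex (Cx) and outer medulla (OM) was sequenced from 5 rats in each group, which made 30 libraries. The total count on genes was 5408126 to 21842843 per library. Both tissues were dissected by hand and hold many cell types.

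Cells of the renal medulla live in a salt- and urea-rich interstitium whose tonicity changes with water and salt balance. They hold their volume by accumulating small organic osmolytes, chiefly sorbitol, betaine, *myo*-inositol, taurine, and glycerophosphocholine, and they make chaperones that protect proteins from salt and urea. The transcription factor NFAT5, also called tonicity-responsive enhancer binding protein, is activated by hypertonicity and drives many of the genes for these steps through a short DNA element, the tonicity-responsive enhancer.

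Among the libraries, replicate 2 of OM LS stood apart from its label. On an axis over expressed genes on which the mean of the Cx libraries is 0 and the mean of the other OM libraries is 1, this library lay at 0.539, whereas the other OM libraries lay between 0.870 and 1.16 and the Cx libraries between −0.116 and 0.135. Its summed cortex markers (7 genes of the proximal convoluted tubule, distal convoluted tubule, and podocyte, among them *Pvalb* at 0 in all 30 libraries) reached 5666.5 CPM (counts scaled to library size by TMM, on the usual CPM scale), against 148.4 to 1561.2 CPM in the other 4 OM LS libraries. Its 4 thick ascending limb markers summed to 10195 CPM, against 16714 to 22016 CPM. Replicate 10 of OM HS14 had the lowest total count, and the next lowest of the 30 was 12748841. By the study's read mapping, replicate 10 also had the smallest exonic and the largest intronic share of mapped bases among the 30. Results in OM are therefore given with and without replicate 2 of LS, and without replicate 10 of HS14 where that matters. Of the other marker lists, no gene was at 0 in every library.

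**Figure D1:**
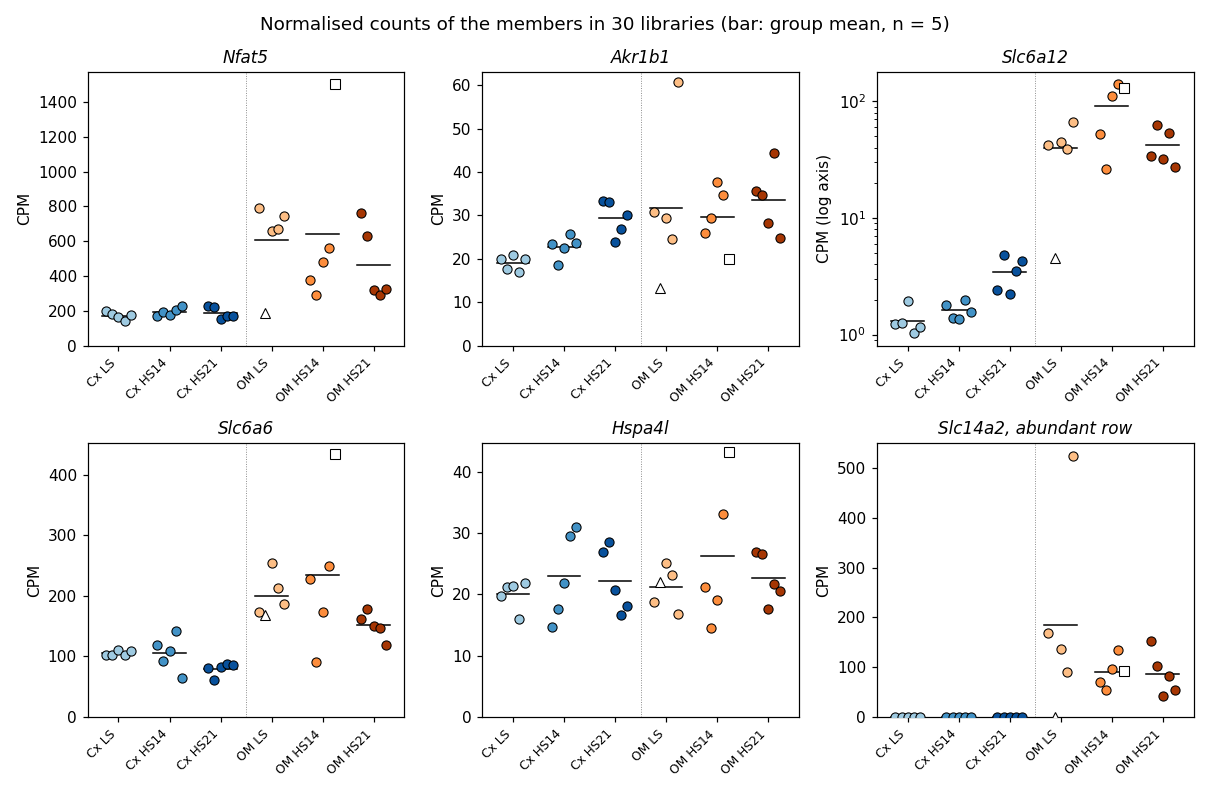
Normalised counts (CPM, scaled by TMM; the *Slc6a12* axis is logarithmic) of 6 gene rows in the 30 libraries, grouped by tissue and diet, with a bar at each group mean. The abundant *Slc14a2* row is the downstream one, the open triangle is replicate 2 of OM LS, and the open square is replicate 10 of OM HS14. In Cx the HS21 libraries of *Akr1b1* and *Slc6a12* lie above all Cx LS libraries and those of *Slc6a6* below them.

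On LS the members differed widely in level. Compared per length, as the deposited FPKM (fragments scaled to gene length and library size), the highest member in Cx LS was the taurine transporter gene *Slc6a6* with 38.4 ± 1.53 FPKM (SD, *n* = 5). It was followed by *Akr1b1* with 14.2 ± 1.23 FPKM and *Nfat5* with 12.7 ± 1.60 FPKM, whose ranges overlapped, then by *Hspa4l* with 4.82 ± 0.589 FPKM and *Slc6a12* with 0.473 ± 0.126 FPKM. Between the other neighbours in this order the Cx LS libraries did not overlap. Both *Slc14a2* rows were at 0 or next to it. In OM LS without replicate 2, the downstream *Slc14a2* row (77.1 ± 66.0 FPKM, SD, *n* = 4) and *Slc6a6* (74.5 ± 13.3 FPKM) came first. They were followed by *Nfat5* (51.8 ± 4.44 FPKM), *Akr1b1* (26.7 ± 11.9 FPKM), *Slc6a12* (17.0 ± 4.32 FPKM), *Hspa4l* (4.96 ± 0.940 FPKM), and the upstream *Slc14a2* row (1.29 ± 0.878 FPKM). The downstream *Slc14a2* row overlapped with *Slc6a6*, *Nfat5*, and *Akr1b1*, and *Akr1b1* overlapped with *Slc6a12*.

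The first comparison asked how the members differ between the tissues on LS. In OM LS against Cx LS, *Nfat5*, *Slc6a6*, and *Slc6a12* were higher, which makes 3 of the 5 rows tested with edgeR's quasi-likelihood test, against 21.3% of all genes raised in this comparison. Without replicate 2 of OM LS, *Akr1b1* passed as well, which makes 4 of the same 5 rows, against 25.9% of all genes raised. Both *Slc14a2* rows entered the second fit only through their level in OM and are not counted. *Hspa4l* did not pass in either fit. In this bulk tissue, more cells of a type and more RNA per cell cannot be told apart, here and in every result that follows.

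*Nfat5* (ENSRNOG00000011879, Rnor_6.0 chr19:38446059-38533735, minus strand) encodes the tonicity-activated transcription factor itself. In Cx LS its level was 199, 182.5, 163, 141, and 175 CPM in replicates 1 to 5. In OM LS it was 790, 186, 657, 669, and 746 CPM. Replicate 2 of OM LS fell among the Cx values, and the other 4 OM libraries lay far above them. The difference of OM LS from Cx LS was 1.81 ± 0.321 on the log2 scale (SE, adjusted *P* = 0.0013 by edgeR), and 2.03 ± 0.108 without replicate 2 (adjusted *P* = 3.52e-07). By the study's read mapping, the OM LS libraries other than replicate 2 had larger intronic shares than replicate 2 and every Cx LS library. The part of the intronic share in this tissue difference was not tested.

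The betaine transporter gene *Slc6a12* (ENSRNOG00000013547, Rnor_6.0 chr4:153921115-153941391, plus strand) showed the largest tissue difference among the members that were detected in every library. In Cx LS its level was 1.22, 1.25, 1.93, 1.03, and 1.16 CPM, from 14 to 25 read pairs per library. In OM LS it was 42.5, 4.53, 44.7, 39.2, and 66.8 CPM. No OM LS library overlapped with Cx LS, and replicate 2 was the lowest of OM LS. The difference was 4.89 ± 0.612 (log2, SE, adjusted *P* = 0.000158), and 5.17 without replicate 2.

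*Slc6a6* (ENSRNOG00000009019, Rnor_6.0 chr4:123642210-123713464, minus strand), which imports taurine with sodium and chloride, was 1.89-fold higher in OM LS (log2 0.92 ± 0.114, adjusted *P* = 0.000153). The OM LS libraries held 173, 168, 254, 213, and 186 CPM and the Cx LS libraries 102, 102, 110, 102, and 109 CPM, so the groups did not overlap and replicate 2 of OM LS was not apart in this gene. Of genes of at least 1 CPM, 29.4% had OM LS and Cx LS libraries that did not overlap. *Akr1b1* (ENSRNOG00000009513, Rnor_6.0 chr4:61706864-61720956, minus strand), aldose reductase, which turns glucose into sorbitol, held 30.9, 13.3, 29.5, 24.5, and 60.7 CPM in OM LS and 20.03, 17.7, 20.8, 17.0, and 19.9 CPM in Cx LS. Its difference was 0.73 ± 0.313 (log2, SE, adjusted *P* = 0.089) with all libraries. Without replicate 2, the only OM LS library below Cx, it was 0.90 ± 0.230 (adjusted *P* = 0.00805). The chaperone gene *Hspa4l* (ENSRNOG00000010819, Rnor_6.0 chr2:127625737-127677499, plus strand), a member of the Hsp110 family first described as an osmotic stress protein, held 16.7 to 25.1 CPM in OM LS and 15.9 to 21.9 CPM in Cx LS, with a difference of 0.07 ± 0.132 (log2, SE, adjusted *P* = 0.694).

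*Slc14a2* encodes the UT-A urea transporters, of which the long forms belong to the inner medullary collecting duct and the short form UT-A2, made from an internal promoter, to the thin descending limb. The downstream row (ENSRNOG00000056021, Rnor_6.0 chr18:74508069-74542077, minus strand) and the upstream row (ENSRNOG00000061714, chr18:74546220-74688551, minus strand) lie 4142 bases apart. The downstream row held no read in any of the 10 Cx LS and Cx HS14 libraries and 6 reads in 1 of the 5 Cx HS21 libraries, replicate 13. In OM LS it held 2734, 0, 2160, 1427, and 7743 reads, or 168, 0, 137, 90.7, and 524 CPM. Replicate 2 of OM LS thus had none, as in Cx, and replicate 5 had by far the most. Against a floor of 3 counts in each Cx LS library, the mean of OM LS was at least 830-fold higher, and at least 1040-fold higher without replicate 2. Without replicate 5, a choice made after seeing the data, it was at least 447-fold higher.

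The upstream *Slc14a2* row was rare. It held 334 reads over the 15 OM libraries and 1 read over the 15 Cx libraries, against 26969 and 6 reads of the downstream row. In the 14 OM libraries other than replicate 2 of LS, it took 0.743% to 3.01% of the reads of both rows, with a median of 1.30%. Compared per length, the downstream row was 19.9 to 82.4 times as high as the upstream row in FPKM, with a median of 46.8. RefSeq lists 2 starts of this gene in its GRCr8 build, 392962 bases apart, and from the inner start to the end of the gene there are 34010 bases, while the downstream row of Rnor_6.0 is 34009 bases long. The upstream row begins far nearer to the downstream row in Rnor_6.0 than the outer start lies to the inner one in GRCr8, so the outer window need not be its start. The 300-base windows around the starts (250 bases before to 50 after, minus strand of GRCr8 chromosome 18, RefSeq) are shown because the rows differ so much in level, with the outer start, chr18:74314497-74314796, first and the inner start, chr18:73921535-73921834, second.

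Slc14a2 outer start: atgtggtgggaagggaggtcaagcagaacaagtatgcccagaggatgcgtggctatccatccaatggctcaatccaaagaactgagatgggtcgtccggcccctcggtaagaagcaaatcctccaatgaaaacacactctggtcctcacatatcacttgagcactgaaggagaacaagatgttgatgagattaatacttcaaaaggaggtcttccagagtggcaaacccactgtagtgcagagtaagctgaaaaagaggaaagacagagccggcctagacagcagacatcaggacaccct
Slc14a2 inner start: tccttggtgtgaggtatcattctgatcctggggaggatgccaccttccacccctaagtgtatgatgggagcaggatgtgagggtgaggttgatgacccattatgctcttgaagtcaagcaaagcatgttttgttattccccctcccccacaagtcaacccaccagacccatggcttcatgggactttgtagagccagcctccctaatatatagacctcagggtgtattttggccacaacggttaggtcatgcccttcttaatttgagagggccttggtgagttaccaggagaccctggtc

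**Figure D2:**
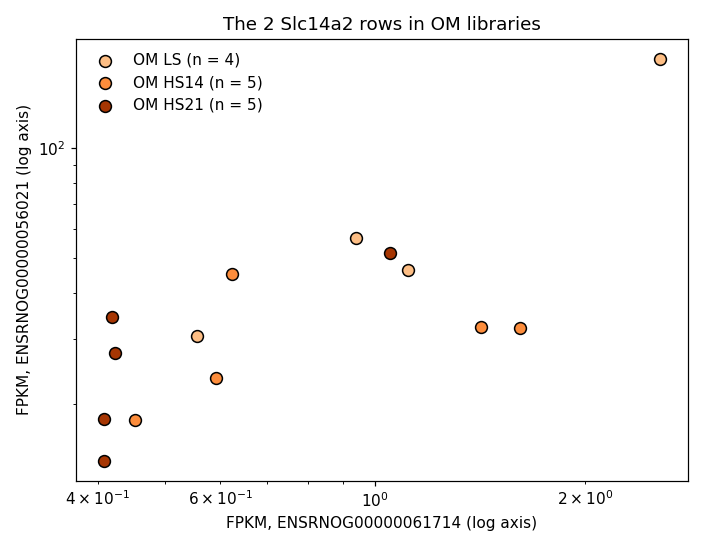
FPKM of the downstream *Slc14a2* row (vertical, log axis) against the upstream row (horizontal, log axis) in the 14 OM libraries with at least 100 reads on both rows together, colored by diet. The downstream row is 19.9 to 82.4 times as high, and replicate 5 of OM LS is the highest in both.

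The next comparisons asked what the HS diet changed in Cx. After 14 d, none of the 5 members tested in Cx passed the edgeR test, against 2.33% of all genes. At an unadjusted *P* under 0.05 there was 1, and DESeq2 called 0. That gene was *Akr1b1*, with 23.5, 18.6, 22.6, 25.8, and 23.6 CPM at HS14, of which 4 exceeded all Cx LS libraries (log2 ratio 0.25 ± 0.0932, unadjusted *P* = 0.0198, adjusted *P* = 0.186). The log2 ratios of the other 4 ranged from −0.0038 for *Slc6a6* to 0.29 for *Slc6a12*, and the median of the 5 was 0.19, against −0.0021 over all genes. Both *Slc14a2* rows were too low in Cx to be tested.

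After 21 d, *Slc6a12* and *Akr1b1* rose and *Slc6a6* fell in Cx. These were 2 raised and 1 lowered of 5 members tested, against 18.9% of all genes raised and 20.5% lowered, and the median of the 5 log2 ratios was 0.15, against 0.0046 over all genes. A change in Cx at HS21 was thus common, 39.4% of all genes in either direction. The same 3 genes were those whose HS21 and LS libraries did not overlap, a pattern that 27.2% of genes of at least 1 CPM showed. *Nfat5* and *Hspa4l* did not pass.

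*Slc6a12* held 2.42, 4.78, 2.21, 3.53, and 4.28 CPM in Cx HS21, from 32 to 72 read pairs per library, and the highest was near replicate 2 of OM LS and under all other OM libraries. All 5 exceeded the 5 libraries of Cx LS and the 5 of Cx HS14, and 9.93% of genes of at least 1 CPM showed no overlap between HS21 and HS14. Against LS the ratio was 2.61-fold (log2 1.38 ± 0.270, adjusted *P* = 0.00201 by edgeR). The exact permutation test, two-sided, gave *P* = 0.00794, the smallest that 5 against 5 libraries can give.

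*Akr1b1* held 33.4, 33.1, 23.9, 26.8, and 30.1 CPM in Cx HS21. Every library was above all 5 of Cx LS, and 4 of 5 were above all of HS14. The ratio to LS was 1.54-fold (log2 0.62 ± 0.102, adjusted *P* = 0.000702 by edgeR, exact permutation *P* = 0.00794). Per length, its level was 14.2 ± 1.23 FPKM in LS and 21.8 ± 2.88 FPKM in HS21 (SD, *n* = 5).

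*Slc6a6* moved the other way. Its Cx HS21 libraries held 80.1, 61.2, 82.2, 87.1, and 84.9 CPM, all under the 101.55 CPM of the lowest LS library. The ratio to LS was 0.754-fold (log2 −0.41 ± 0.0842, adjusted *P* = 0.00276 by edgeR, exact permutation *P* = 0.00794). Replicate 12 was the lowest and stood apart from the other 4. At HS14 the gene was spread more widely, 119, 92.2, 109, 141, and 64.9 CPM, on both sides of LS.

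Neither the regulator nor the chaperone passed the test. *Nfat5* held 228, 225, 154, 172, and 171 CPM in Cx HS21, with 2 libraries above and 3 within the LS range (log2 ratio 0.14 ± 0.123, adjusted *P* = 0.397). *Hspa4l* held 26.9, 28.6, 20.7, 16.6, and 18.2 CPM, likewise with 2 libraries above LS (0.15 ± 0.155, adjusted *P* = 0.486).

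**Figure D3:**
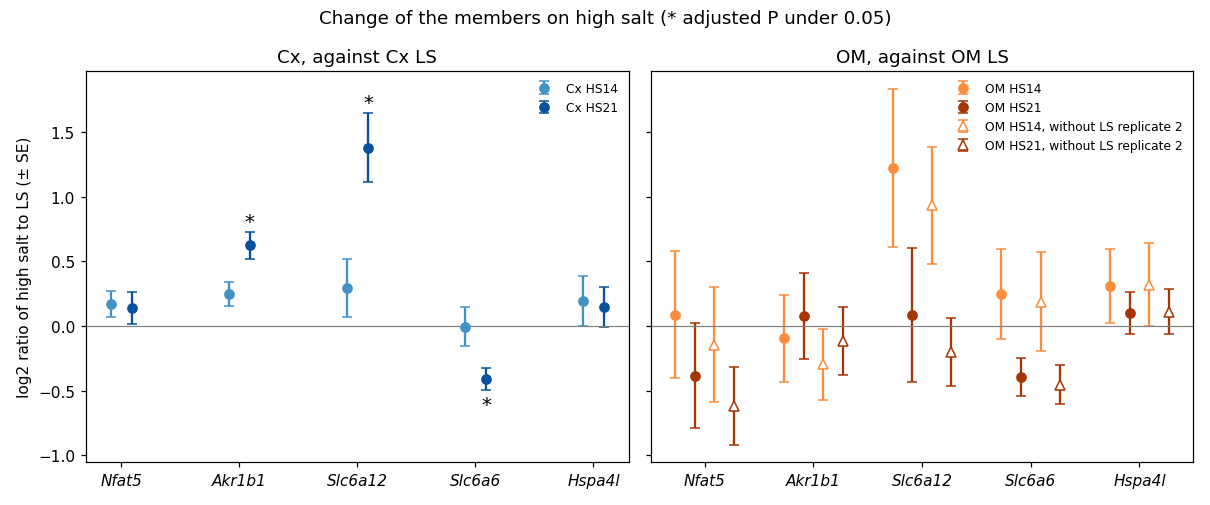
Log2 ratio of each HS group to LS of the same tissue with its SE (edgeR) for 5 members, Cx on the left and OM on the right, where triangles show the fit without replicate 2 of OM LS. Stars mark adjusted *P* under 0.05, which *Akr1b1*, *Slc6a12*, and *Slc6a6* reach in Cx HS21 and no member reaches in OM.

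Promoter windows of 4 of the 6 members were found in RefSeq's GRCr8 table, in 5 windows, and those of the transporters that moved in opposite directions are shown, 5′ to 3′ on the strand of the gene. The 11-letter tonicity-responsive enhancer, whose fixed part is TGGAAA, was searched on both strands, and capitals mark it. It stands in the *Slc6a6* window on the strand opposite to the gene, 161 to 151 bases before the start, where its own strand reads TGGAAAAATAC. None stands in the windows of *Slc6a12*, *Hspa4l*, or *Slc14a2*, and sequence outside the windows was not searched. Of 33469 promoter windows of this length, 5.98% hold the element and 22.7% hold TGGAAA. The *Slc6a6* window is chr4:125752252-125752551 (plus strand in GRCr8) and the *Slc6a12* window is chr4:156257268-156257567 (plus strand).

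Slc6a6: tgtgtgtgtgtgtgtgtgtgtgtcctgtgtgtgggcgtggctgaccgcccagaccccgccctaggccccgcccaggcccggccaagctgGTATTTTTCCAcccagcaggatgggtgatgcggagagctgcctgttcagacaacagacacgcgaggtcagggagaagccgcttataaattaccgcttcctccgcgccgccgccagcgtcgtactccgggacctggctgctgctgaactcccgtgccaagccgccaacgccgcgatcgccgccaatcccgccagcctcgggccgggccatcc
Slc6a12: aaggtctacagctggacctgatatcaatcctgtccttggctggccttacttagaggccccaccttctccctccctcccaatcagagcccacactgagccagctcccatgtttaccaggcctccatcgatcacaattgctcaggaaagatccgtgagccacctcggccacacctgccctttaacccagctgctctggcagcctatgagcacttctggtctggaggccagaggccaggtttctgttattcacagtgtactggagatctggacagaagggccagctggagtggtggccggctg

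Marker genes of other cell types moved in Cx with these changes. Of all genes, 18.9% rose and 20.5% fell in Cx at HS21, beside which the counts of markers in this paragraph stand. The 8 leukocyte markers summed to 1175.1 to 3181.4 CPM in Cx HS21 and 848.5 to 1000.1 CPM in Cx LS, and 7 of 7 tested rose. Collecting duct markers summed to 914.3 to 1537.4 CPM against 641.2 to 705.0 CPM in LS (5 of 6 rose). Thick ascending limb markers summed to 2278.6 to 3104.7 CPM against 1349.5 to 1962.6 CPM (3 of 4 rose). The cortex markers summed to 7520.6 to 10714 CPM against 10110 to 10848 CPM (2 rose and 3 fell of 6). The outer stripe markers, chosen for the straight proximal tubule, summed to 833.2 to 1165.3 CPM against 1330.2 to 1577.8 CPM (1 rose and 1 fell of 4). Since genes of this list moved in opposite directions, its sum does not show the amount of straight proximal tubule. On the axis between the tissues the Cx HS21 libraries lay at 0.0988 to 0.135 and the Cx LS libraries at −0.116 to −0.0633. The part of these shifts in the changes of *Slc6a12*, *Akr1b1*, and *Slc6a6* was not tested.

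**Figure D4:**
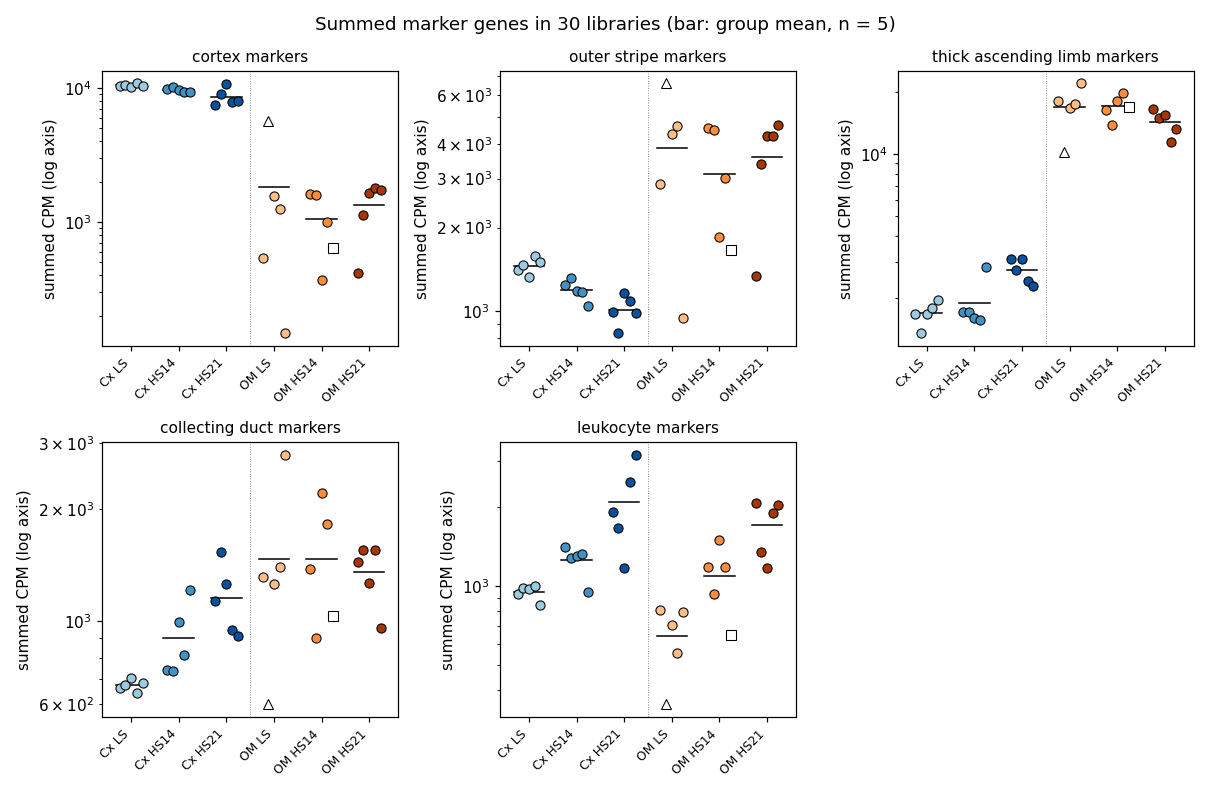
Summed CPM (log axes) of 5 lists of marker genes in the 30 libraries, with a bar at each group mean. The open triangle is replicate 2 of OM LS, whose cortex markers at 5666.5 CPM lie between the tissues, and the open square is replicate 10 of OM HS14. Leukocyte markers of Cx HS21 lie at 1175.1 to 3181.4 CPM, above all Cx LS libraries.

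From 14 to 21 d in Cx, *Slc6a12* rose 2.13-fold (log2 1.09 ± 0.250, adjusted *P* = 0.0173 by edgeR) and *Akr1b1* by 1.29-fold (0.37 ± 0.112, adjusted *P* = 0.0435). These were 2 raised of 5, against 6.5% of all genes. The comparisons of HS21 with LS and with HS14 share the HS21 libraries. The call for *Akr1b1* was lost in 8 of 10 fits without 1 library, with an adjusted *P* of up to 0.0935, and that for *Slc6a12* in the fit without replicate 8 of HS14 (adjusted *P* = 0.0501). *Slc6a6* differed by −0.40 ± 0.174 (adjusted *P* = 0.129), and by −0.54 without replicate 10 of HS14, its lowest HS14 library (adjusted *P* = 0.014).

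In OM, no member passed the edgeR test on either day. At HS14 this was 0 of 7 rows, against 0.00694% of all genes, with 0 rows at an unadjusted *P* under 0.05 and 0 by DESeq2. At HS21 it was 0 of 7, against 0.769% of all genes, with 1 row at an unadjusted *P* under 0.05 and 0 by DESeq2. Both days were compared with the same LS libraries. The median log2 ratio of the 7 rows was 0.09 at HS14 and −0.38 at HS21, against −0.0228 and −0.0314 over all genes. Without replicate 2 of LS it was −0.14 and −0.45. No row passed then either, with 1 row at HS14 and 3 at HS21 at an unadjusted *P* under 0.05, against 0% and 0.731% of all genes called.

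*Slc6a12* varied widely in OM. The HS14 libraries held 52.2, 26.1, 112, 140, and 129 CPM and the HS21 libraries 33.8, 62.8, 31.96, 53.7, and 27.5 CPM. At HS14, 3 libraries were above all of OM LS, among them replicate 10, the shallowest library. Another was under all but replicate 2 of LS, while 3 of 5 HS21 libraries likewise lay under all of LS but replicate 2. The log2 ratio to LS was 1.23 ± 0.611 at HS14 (adjusted *P* = 0.962) and 0.09 ± 0.519 at HS21 (adjusted *P* = 0.984), and without replicate 2 of LS 0.93 ± 0.451 (adjusted *P* = 1) and −0.20 ± 0.265 (adjusted *P* = 0.764). From HS14 to HS21 the ratio was −1.14 ± 0.433 (unadjusted *P* = 0.0239, adjusted *P* = 0.961), in a comparison in which none of 7 rows and 0% of all genes passed, and 1 row had an unadjusted *P* under 0.05. DESeq2 called 0 rows there.

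*Nfat5* in OM held 375, 292, 479, 563, and 1506 CPM at HS14 and 761, 627, 317, 293, and 327 CPM at HS21. Replicate 10, the shallowest library and the one with the largest intronic share, was above all others of the series. The other HS14 libraries and 4 of 5 HS21 libraries lay under the 4 LS libraries other than replicate 2. These 4 LS libraries also had larger intronic shares than replicates 6 to 9 of HS14 and replicates 13 to 15 of HS21. The part of the intronic share in the *Nfat5* values was not tested. The log2 ratio to LS was 0.09 ± 0.495 at HS14 and −0.38 ± 0.408 at HS21 (adjusted *P* = 0.994 and 0.84). It was −0.75 at HS14 without replicate 2 of LS and replicate 10 of HS14 (adjusted *P* = 0.23) and −0.62 ± 0.302 at HS21 without replicate 2 (adjusted *P* = 0.42), so its sign at HS14 depended on these libraries.

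The edgeR log2 ratios of the taurine and urea transporters at HS21 in OM were negative, without passing the test. *Slc6a6* held 162, 178, 150, 147, and 119 CPM in OM HS21, of which 4 were under all 5 LS libraries (log2 ratio −0.40 ± 0.147, unadjusted *P* = 0.0222, adjusted *P* = 0.307). At HS14 it held 228, 90.1, 173, 250, and 433 CPM, the last again in replicate 10. The downstream *Slc14a2* row held 69.9, 53.9, 96.5, 134, and 92.2 CPM at HS14 and 152, 103, 41.9, 81.9, and 53.8 CPM at HS21, all within the wide LS range of 0 to 524 CPM.

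Without replicate 2 of LS, the log2 ratio of the downstream *Slc14a2* row was −1.35 ± 0.480 at HS14 (unadjusted *P* = 0.0186, adjusted *P* = 0.778) and −1.39 ± 0.538 at HS21 (unadjusted *P* = 0.0283, adjusted *P* = 0.291). That of the upstream row was −0.51 ± 0.525 and −1.23 ± 0.479 (adjusted *P* = 1 and 0.294). Its 4 HS21 libraries other than replicate 11 held 0.745 to 0.779 CPM, under the lowest of the 4 LS libraries at 1.02 CPM. At 11 to 33 reads per HS21 library, the counting error of this row is large. Replicate 5 of LS held 524 CPM of the downstream row, against 90.7 to 168 CPM in replicates 1, 3, and 4. Among the OM LS libraries it also had the lowest outer stripe sum, 948.2 CPM, and the highest collecting duct sum, 2801.2 CPM. Genes of the outer stripe list moved in opposite directions in Cx, so its sum does not show the amount of straight proximal tubule. No fit left out both replicates 2 and 5 of LS, so the part of replicate 5 in these ratios was not tested.

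*Akr1b1* held 26.0, 29.3, 37.7, 34.8, and 20.02 CPM at HS14 and 35.5, 34.7, 28.2, 44.3, and 24.9 CPM at HS21 in OM. All lay within the LS range of 13.3 to 60.7 CPM. *Hspa4l* held 21.1, 14.6, 19.1, 33.0, and 43.3 CPM at HS14 and 26.9, 26.6, 17.6, 21.6, and 20.5 CPM at HS21. The log2 ratios of these 2 genes were −0.10 ± 0.339 and 0.31 ± 0.287 at HS14, and 0.08 ± 0.334 and 0.10 ± 0.160 at HS21, with adjusted *P* from 0.907 to 0.994. Leukocyte markers also rose in OM at HS21, to a sum of 1171.7 to 2080.5 CPM against 352.1 to 807.2 CPM in LS. Of these, 4 of 8 genes passed, against 0.639% of all genes raised, while *Cd3e*, *Cd68*, and *Csf1r* did not pass. *Cd79b* went the other way without passing (−0.33 ± 0.466, adjusted *P* = 0.891 by edgeR).

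Whether the diet acted differently in the tissues was tested as the interaction of tissue and diet. Among the 5 members other than *Slc14a2*, which Cx lacked, none passed at HS14 (0% of all genes in either direction) or at HS21 (0.665% of all genes). With all libraries, none had an unadjusted *P* under 0.05 on either day, and DESeq2 called 0. For *Slc6a12* at HS21 the change in OM minus that in Cx was −1.30 ± 0.670 (log2, SE, adjusted *P* = 0.359). Without replicate 2 of OM LS it was −1.57 (adjusted *P* = 0.0239), 1 lowered of 5 members against 3.55% of all genes, and with this number left out of both tissues it was −1.56 (adjusted *P* = 0.0425). For *Akr1b1* the same difference was −0.55 ± 0.368 (adjusted *P* = 0.496), and without replicate 2 of OM LS −0.72 ± 0.295 (unadjusted *P* = 0.0243, adjusted *P* = 0.129). For *Nfat5* it was −0.53 ± 0.440 (adjusted *P* = 0.588), and without that library −0.74 ± 0.326 (unadjusted *P* = 0.0351, adjusted *P* = 0.16), so that 3 of 5 members then had an unadjusted *P* under 0.05. For *Slc6a6* it was 0.0094 ± 0.170 (adjusted *P* = 0.985).

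The wider osmolyte pathway was described with 7 lists of 83 genes, of which 80 were found. In Cx at HS21, 9 genes of osmolyte synthesis and breakdown fell and 2 rose, of 18 tested (median log2 ratio −0.19, against 0.0046 over all genes), where 18.9% of all genes rose and 20.5% fell. The raised genes were *Isyna1*, which makes *myo*-inositol phosphate from glucose phosphate (0.79 ± 0.0888, adjusted *P* = 7.89e-05 by edgeR), and *Cdo1*, cysteine dioxygenase of taurine synthesis (0.65 ± 0.199, adjusted *P* = 0.0226). The largest fall was that of *Aldh7a1*, an aldehyde dehydrogenase that makes betaine among other products (−0.59 ± 0.0689, adjusted *P* = 9.16e-05). The call for *Cdo1* was lost in 4 of 10 fits without 1 library (adjusted *P* up to 0.0557).

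Of 9 other osmolyte transporters, 2 were raised and 5 lowered in Cx at HS21 (median −0.22), against 18.9% and 20.5% of all genes. Those with the largest changes were *Slc22a5*, the carnitine transporter (−0.85 ± 0.0926), *Slc16a12*, a creatine transporter (−0.84 ± 0.0812), and *Slc44a2*, a choline transporter-like protein (0.73 ± 0.0701). Of 5 subunits of the volume-regulated anion channel, through which swollen cells release osmolytes, *Lrrc8b* (−0.79 ± 0.0872) and *Lrrc8d* (−0.57 ± 0.0639) fell and *Lrrc8c* rose (0.55 ± 0.159), beside the same shares of all genes. Their adjusted *P* values by edgeR ranged from 3.15e-05 to 0.0175.

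Of 18 chaperone genes tested in Cx at HS21, 4 rose and 8 fell (median −0.29), against 18.9% of all genes raised and 20.5% lowered. The share raised was thus near that of all genes, and the share lowered was above it. The called genes of largest change, named here, were raised. Small heat shock proteins led the raised genes, with *Hspb8* at 1.20 ± 0.225 (adjusted *P* = 0.00156), *Cryab* at 0.81 ± 0.112 (adjusted *P* = 0.000247), and *Hspb1* at 0.68 ± 0.175 (adjusted *P* = 0.00925). Of 16 regulators and relatives of *Nfat5*, 5 rose and 5 fell (median 0.06), against 18.9% and 20.5% of all genes. Among them *Nfatc2*, a calcineurin-dependent relative active in lymphocytes, rose by 1.36 ± 0.253 (adjusted *P* = 0.00156), the kinase gene *Fyn* by 0.86 ± 0.118 (adjusted *P* = 0.000238), and *Map2k6* by 0.50 ± 0.176 (adjusted *P* = 0.0399). The call for *Map2k6* was lost in 6 of 10 fits without 1 library (adjusted *P* up to 0.0871). The rise of the leukocyte markers given above stands beside these values.

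Among the urea genes, *Arg2*, a mitochondrial arginase that forms urea, rose (0.61 ± 0.205, adjusted *P* = 0.0328 by edgeR) and *Aqp7*, a channel for water, glycerol, and urea, fell (−0.56 ± 0.107, adjusted *P* = 0.00186). These were the 2 tested of 5 found, where 39.4% of all genes changed in either direction. The call for *Arg2* was lost in 5 of 10 fits without 1 library (adjusted *P* up to 0.0801). The aldo-keto reductase relatives of *Akr1b1* did not share its rise, with 0 raised and 5 lowered of 6 (median −0.52), against 18.9% and 20.5% of all genes. The largest falls were those of *Akr1b8* (−0.69 ± 0.203, adjusted *P* = 0.0181), *Akr7a3* (−0.64 ± 0.111, adjusted *P* = 0.001), and *Akr1c1* (−0.54 ± 0.151, adjusted *P* = 0.0149).

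**Figure D5:**
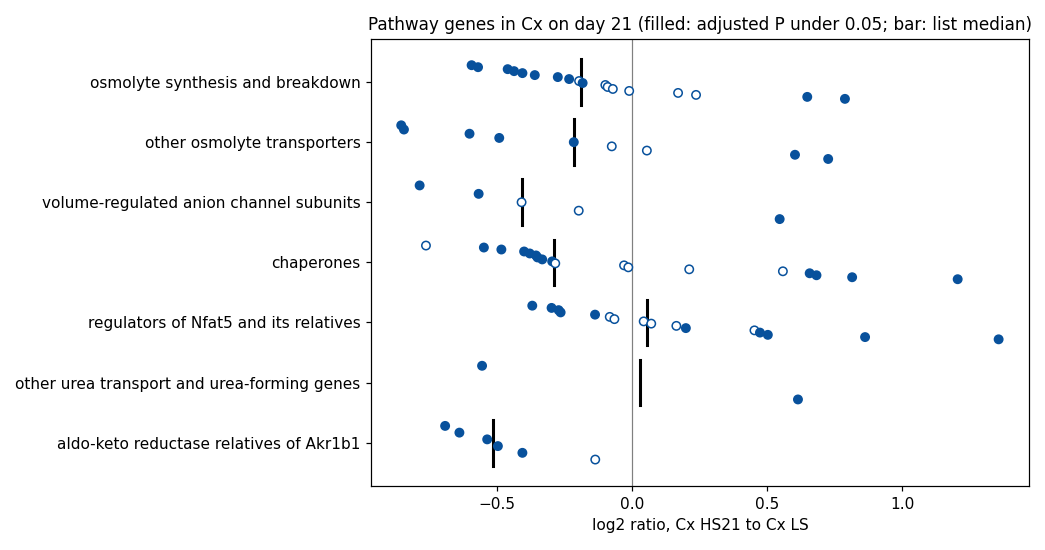
Log2 ratio of Cx HS21 to Cx LS for each tested gene of the 7 pathway lists, filled where the adjusted *P* is under 0.05, with a bar at the median of the list. The aldo-keto reductase relatives lie below 0 in 6 of 6 cases, and *Nfatc2* at 1.36 and *Hspb8* at 1.20 are the highest points.

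In Cx at HS14, 3 of 75 tested genes of these lists passed, against 2.33% of all genes. *Gde1*, a glycerophosphodiesterase (−0.33 ± 0.0659, adjusted *P* = 0.027), and *Slc6a13*, a transporter of GABA and taurine (−0.37 ± 0.0729, adjusted *P* = 0.0281), fell and *Hspb8* rose (0.76 ± 0.163, adjusted *P* = 0.0383 by edgeR). Without 1 library these calls were lost in 6, 7, and 7 of 10 fits, at adjusted *P* values up to 0.0848, 0.0852, and 0.0974. In the lists where no gene passed, those of smallest unadjusted *P* were *Lrrc8d* (−0.14 ± 0.110), *Lrrc8e* (−0.20 ± 0.177), *Fyn* (0.35 ± 0.107), *Atm* (0.35 ± 0.119), *Arg2* (0.28 ± 0.168), *Aqp7* (−0.16 ± 0.110), *Akr1a1* (−0.21 ± 0.0598), and *Akr1e2* (−0.20 ± 0.0609), at adjusted *P* from 0.0955 to 0.617.

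In OM, 0 genes of the lists passed the edgeR test at HS14, where 1 gene of all 14417 tested did. The genes of smallest unadjusted *P* were *Fyn* (0.45 ± 0.136, unadjusted *P* = 0.00706, adjusted *P* = 0.58) and *Nfatc4* (0.56 ± 0.209, unadjusted *P* = 0.0221) among the regulators. In the other lists they were *Sord*, sorbitol dehydrogenase (−0.84 ± 0.528), *Bhmt* (−0.78 ± 0.669), *Slc44a2* (0.36 ± 0.248), *Slc6a13* (−0.82 ± 0.606), *Lrrc8a* (0.33 ± 0.167), *Lrrc8c* (0.55 ± 0.358), *Hsph1* (0.31 ± 0.157), *Hspa4* (0.23 ± 0.171), *Aqp7* (−0.62 ± 0.566), *Arg2* (0.29 ± 0.340), *Akr1c1* (−1.42 ± 0.937), and *Akr7a3* (−0.83 ± 0.618), all at an adjusted *P* of 0.962 or 0.994. At HS21 *Slc38a2*, an amino acid transporter induced by hypertonicity, fell (−0.71 ± 0.137, adjusted *P* = 0.0491) and *Fyn* rose (0.86 ± 0.101, adjusted *P* = 0.00868 by edgeR). The first call was lost in 9 of 10 fits without 1 library (adjusted *P* up to 0.149) and the second without replicate 3 of OM LS (adjusted *P* = 0.0558). In the lists where none passed in OM at HS21, the genes of smallest unadjusted *P* were *Impa1* (0.18 ± 0.168), *Gpcpd1* (0.14 ± 0.127), *Lrrc8a* (0.17 ± 0.0969), *Lrrc8e* (−0.24 ± 0.144), *Hspb8* (0.76 ± 0.308), *Dnajb1* (0.29 ± 0.181), *Arg2* (0.34 ± 0.376), *Arg1* (0.16 ± 0.321), *Akr7a3* (−0.68 ± 0.576), and *Akr1b8* (0.35 ± 0.310), at adjusted *P* from 0.373 to 0.936. These log2 ratios in OM include replicate 2 of LS. Without it, 0 of 76 tested list genes passed at HS14, where 0% of all genes did. At HS21, 1 rose and 1 fell, against 0.731% of all genes in either direction. At HS14 *Aqp7* and *Akr1c1* changed sign without replicate 2 of LS and replicate 10 of HS14.

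Genes whose level followed that of a member most closely were ranked by Pearson's correlation of log2 CPM over the 15 libraries of a tissue, which share diet, depth, and tissue makeup, among the 11039 to 11222 protein-coding genes that averaged 5 CPM or more there. The libraries also differ in their share of mapped bases in introns, whose part in these correlations was not tested. In Cx the closest to *Nfat5* were *Jmjd1c*, *Ptbp3*, and *Zfc3h1* (0.931, 0.930, and 0.922). Closest to *Akr1b1* were *Ahnak*, *Rcn1*, and *S100a6* (0.943, 0.930, and 0.919), and closest to *Slc6a12* were *Lmo2*, *Sp140*, and *Gngt2* (0.937, 0.925, and 0.925). For *Slc6a6* they were *Lgmn*, *Sptbn1*, and *Rbm19* (0.950, 0.934, and 0.929), and for *Hspa4l* AABR07053406.1, *Rilpl1*, and *Trove2* (0.854, 0.834, and 0.823).

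In OM, with all 15 libraries, the closest to *Nfat5* were *Atp8b1*, *Atp2b3*, and *Igf1* (0.983, 0.976, and 0.975), and those to *Slc6a12* were *Cyyr1*, *Liph*, and *Gulp1* (0.961, 0.948, and 0.947). For *Akr1b1* they were *Tspan1*, *Prnp*, and *Isyna1* (0.927, 0.911, and 0.908), for *Slc6a6* *Clip1*, *Bcl2l13*, and *Fam168a* (0.949, 0.938, and 0.930), and for *Hspa4l* *Aqr*, *Sptbn1*, and *Nup205* (0.928, 0.916, and 0.913). Without replicate 2 of LS, *Prnp* and *Isyna1* fell to 0.844 and 0.839 and *Gulp1* to 0.868, and the 3 closest genes of each of these 5 members were no longer the same. The downstream *Slc14a2* row was close to *Slc14a1*, the other urea transporter gene, and *Tank* (0.959 and 0.945), but this rested on replicate 2 of LS, without which the correlations were 0.705 and 0.612. The upstream row was closest to *Cldn8*, *Raver2*, and *Lamb2* (0.947, 0.945, and 0.938), and without that library at 0.913, 0.914, and 0.912.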

How the data were processed

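Poly(A) mRNA of Cx and OM from 5 rats per group was sequenced without strand information, so reads of a gene and of an antisense or overlapping partner cannot be told apart. Per the methods and the submitters' processing notes, the authors aligned reads to Ensembl Rnor_6.0 with HISAT2 2.0.5, used StringTie 1.3.3b, and counted reads per gene with featureCounts 1.5.0-p3. The tests used the deposited counts, which are raw and whole. The deposited FPKM values were computed by the authors from counts and gene length, and were used to compare genes and in an alternative fit. The authors' own comparison columns (group means, fold changes, *P* values) were not used. The paper states that kidneys of 5 rats per group were divided into cortex and outer medulla, so both tissues appear to come from the same rats. Nothing says whether equal replicate numbers in Cx and OM mark the same rat. The main tissue and interaction tests therefore treated the libraries as independent, with a replicate block as an alternative.

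Groups were compared with edgeR 4.0.16 in R 4.3.3 (filterByExpr, TMM, quasi-likelihood F-test, 10 libraries), tissue by diet as an interaction over 20 libraries, with *P* adjusted by Benjamini and Hochberg over all genes tested and a call at an adjusted *P* under 0.05. The SE is the log2 ratio divided by the square root of F. Log2 CPM used a prior count of 2. Exact permutation tests of single genes were two-sided. The scripts were tested on simulated data. The libraries of a group were compared with each other, and none was a copy (difference at least 7.29 times counting noise in 60 pairs). Alternatives were DESeq2 1.42.0, other scalings, no filter, limma 3.58.1 on log2(FPKM + 1), a replicate block, and leaving libraries out. The 7 member symbols, the pathway and marker lists (29 marker genes), and the rules for naming genes (the members, up to 3 called genes of largest change per list and comparison with LS or, where none was called, up to 2 of smallest *P*, and the 3 most alike genes) were chosen with earlier results of these data known. Of the most alike genes, 1 is not reported here. Promoter windows came from RefSeq's GRCr8 table, by symbol, since no genome was used here. Spread between libraries of a group includes differences between rats and counting error.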

Additional observations from a re-analysis of the deposited data

Results flagged for a closer look

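The groups of 5 libraries were searched for a library far from the others of its group (a gap to the nearest library of more than 0.71 of the range on the log2 CPM scale), which chance alone gives in about 1 of 20 groups. Of 36 gene and group pairs, 5 were found. In OM LS, replicate 2 was the lowest for 3 rows. It held 7.54 log2 CPM of *Nfat5* against 9.36 to 9.63 in the other 4 libraries, 2.22 of *Slc6a12* against 5.30 to 6.06, and −2.89 of the downstream *Slc14a2* row against 6.51 to 9.04. The same library had the high cortex markers given in the report, and the part of its tissue makeup in these values was not tested.

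In Cx HS21, replicate 12 was the lowest for *Slc6a6*, at 5.94 log2 CPM against 6.33 to 6.45. In OM HS21, replicate 11 was the highest for the upstream *Slc14a2* row, at 1.04 log2 CPM against −0.19 to −0.13, from 33 reads against 11 to 13.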

How the results depend on the processing

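Every alternative with all libraries (DESeq2, RLE or total-count scaling, no low-count filter, limma on log2(FPKM + 1), the replicate block) kept the number of member rows called within 1.5 times the main count, except that limma called 1 in Cx HS21 against HS14 in place of 2, where *Akr1b1* was lost. Leaving out replicate 2 of OM LS called 1 in the interaction at HS21 in place of 0. Without 1 library the calls ranged from 0 to 3 in Cx HS21 against HS14 (0 without replicate 8 of HS14), from 0 to 1 in the interaction at HS21 (1 without replicate 2), from 3 to 4 in OM LS against Cx LS (among the 5 rows tested with all libraries), and stayed at 3 in Cx HS21 against LS and at 0 elsewhere. Over all log2 ratios and the alternatives, counting the omission of replicate 2 of OM LS only in the interaction at HS21 and leaving other single omissions to the ranges given last, 558 kept direction and side of the threshold, 8 lost and 3 gained the call, and 17 changed sign. None of the 17 was called, and the cause was not tested.

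The sign changes were as follows. With total-count scaling they were *Slc6a6* in Cx HS14 (0.011), *Nfat5* (0.085) and *Hspa4l* (0.063) in Cx HS21 against HS14, the downstream *Slc14a2* row in OM HS21 against HS14 (0.027), and *Slc6a6* in the interaction at HS21 (−0.092). Without the filter it was *Slc6a6* in Cx HS14 (0.0053). With limma they were, in OM HS14, *Nfat5* (−0.018), *Akr1b1* (0.029), and the downstream *Slc14a2* row (0.13), and that row in OM HS21 (0.0030). Without replicate 2 of OM LS and replicate 10 of OM HS14 they were, in OM HS14, *Nfat5* (−0.75), *Slc6a6* (−0.16), *Aqp7* (0.044), and *Akr1c1* (0.093), and in the interaction at HS14 *Slc6a6* (−0.17) and *Hspa4l* (−0.14). In the interaction at HS21 without replicate 2 of OM LS it was *Slc6a6* (−0.025).

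Without 1 library, log2 ratios that crossed 0 ranged as follows. In Cx HS14, *Slc6a6* ranged from −0.13 to 0.13. In Cx HS21 against HS14, *Nfat5* ranged from −0.10 to 0.036 and *Hspa4l* from −0.18 to 0.079. In OM HS14, *Nfat5* ranged from −0.52 to 0.28, *Akr1b1* from −0.30 to 0.26, *Slc6a6* from −0.11 to 0.46, and the upstream *Slc14a2* row from −0.51 to 0.40. In OM HS21, *Akr1b1* ranged from −0.11 to 0.44, *Slc6a12* from −0.20 to 0.34, and *Arg1* from −0.042 to 0.32. In OM HS21 against HS14, *Nfat5* ranged from −0.75 to 0.13, *Hspa4l* from −0.37 to 0.051, and the downstream *Slc14a2* row from −0.36 to 0.15. In OM LS against Cx LS, *Hspa4l* ranged from −0.018 to 0.15. In the interaction at HS14, *Nfat5* ranged from −0.63 to 0.083, *Slc6a6* from −0.24 to 0.39, and *Hspa4l* from −0.011 to 0.24. At HS21, *Slc6a6* ranged from −0.14 to 0.12 and *Hspa4l* from −0.16 to 0.084.

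Total-count scaling moved the median log2 ratio of all genes to 0.1344 in Cx HS21 against LS, with 4401 genes raised and 1653 lowered in place of 2702 and 2936. It moved it to 0.1289 in Cx HS21 against HS14 (2084 and 644 in place of 935 and 1395), to 0.2683 in OM LS against Cx LS (5546 and 1842 in place of 3051 and 2794), and to −0.1593 in the interaction at HS21 (57 and 54 in place of 68 and 33). DESeq2 called more genes, 500 raised and 414 lowered in Cx HS14 against LS in place of 162 and 168, 90 and 20 in OM HS14 in place of 1 and 0, 555 and 166 in OM HS21 in place of 93 and 19, 20 and 11 in OM HS21 against HS14 in place of 0 and 0, 8 and 3 in the interaction at HS14 in place of 0 and 0, and 337 and 201 in that at HS21. Total-count scaling called 35 and 9 in OM HS21, and limma called 87 and 96 in Cx HS14. Equal replicate numbers in Cx and OM correlated above 0.1 in 12 of 15 pairs (−0.1248 to 0.5705), and 13 of 15 libraries correlated best with their own number, a hint from the data and not the design. With the replicate block, 3 member rows were called in OM LS against Cx LS and 0 in both interactions, as without it, and over all genes 2442 were raised and 2569 lowered in OM LS against Cx LS. At 14 to 25 reads per library for *Slc6a12* in Cx LS and 11 to 33 for the upstream *Slc14a2* row in OM HS21, counting error is large.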
